A study of Mus musculus with 2 samples.

Results

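The clustered protocadherins are the genes whose symbols begin with Pcdha, Pcdhb or Pcdhg, which lie in 3 neighbouring clusters on mouse chromosome 18. They number 58, a transcribed pseudogene (Pcdhgb8) included, in the RefSeq gene table of assembly GRCm38.p6, and 35 of them have a probe on the array, out of 20274 genes that could be named through a probe's RefSeq accession. Of the 35, 17 were well above background and entered the tests, out of 16069 such genes. Each of 2 Agilent arrays compared Cy5-labelled RNA of mouse embryonic stem cells (ESCs) with the genotype label HDAC6 overexpression against Cy3-labelled RNA of wild-type (WT) ESCs. Cells of both kinds were of strain B6C3F1, at passage 26, and grew with LIF on mouse embryonic fibroblasts treated with mitomycin C (feeders), whose RNA may be part of either sample. How HDAC6 was introduced, and whether the overexpressing cells were 1 clone, is not given in the sources used here. The arrays are labelled biological replicates 1 and 2, but nothing says that the cultures were separate. The p-values thus measure only the spread between these arrays, which may be technical. In limma that spread is largely shared over all genes tested, with 4.60 prior degrees of freedom beside 1 residual. The dyes were not swapped, so a dye effect cannot be told apart from the genotype.

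Protocadherins of these clusters are cadherin-like proteins of the cell surface that bind copies of themselves on neighbouring cells. Neurons each express a different, largely randomly chosen combination of them, which serves as an identity tag when branches of the same cell avoid each other. In the alpha and gamma clusters each gene has a variable exon with its own promoter, spliced to constant exons that the whole cluster shares, whereas each beta gene is a separate gene with a single coding exon and no shared end. Promoter choice depends on the insulator protein CTCF and on cohesin, and DNA methylation set by DNMT3B in the early embryo keeps many of the promoters silent. The C-type genes at the ends of the alpha and gamma clusters follow other rules of expression.

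Probes that could be named covered the clusters unevenly. All 22 beta genes had such a probe, against 7 of 14 alpha genes and 6 of 22 gamma genes. Since 28919 probes matched no gene, other members may be on the array unnamed. The gene models of all 14 alpha and all 22 gamma genes overlap another member of their cluster, while 0 of the 22 beta models do. The files do not say where in a transcript a probe lies, so an alpha or gamma probe may read the shared exons rather than its own gene, and beta probes may bind a near-identical paralogue. Processed signals, used throughout, are the scanner software's background-subtracted and dye-normalized intensities. Hdac6 itself had processed signals of 18275 and 17344 in the overexpression channel and 16389 and 17806 in the WT channel (replicates 1 and 2). Its log2 ratio was 0.060 ± 0.14 (SD, n = 2, limma adjusted p = 0.639), so the Hdac6 probe did not show the labelled overexpression, and the directions below refer to the channels as labelled. Whether the probe reads the introduced sequence is not known here. Of the 10 ESC markers 10 were above background, among them Pou5f1, Nanog and Sox2, with 3 higher and 4 lower. Over all genes tested, 21.2% were higher and 29.9% lower.

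Among the 17 clustered protocadherins tested, 9 rose in the overexpression channel and 0 fell, at an adjusted p under 0.05 in limma's test of the log2 ratio of overexpression over WT against 0. The background in the same test was 21.2% of genes higher and 29.9% lower, or 51.2% called in all. At an unadjusted p under 0.05, 10 of the 17 passed in either direction, or 58.8%, next to 58.3% of all genes. The median log2 ratio of the 17 was 0.39, against -0.061 over all genes tested and -0.080 over the 366 other tested genes of the chromosome. By cluster, 7 of 10 tested beta genes rose, 2 of 4 gamma genes and 0 of 3 alpha genes. With normexp background correction and loess normalization of the raw signals, 9 again rose and 0 fell, where 22.1% of all genes were called higher and 34.5% lower, or 56.6% in all. Whether the clusters differ from each other was not tested. By a rule of size, 2-fold or more in one direction in replicates 1 and 2 alike, 2 of the 17 were higher and 0 lower, against 3.03% of all genes higher and 4.39% lower. One of these, Pcdhb15, entered through the overexpression channel alone, and with both channels required above background the count was 1 of 15. Pcdhb15 was also among the 9 called genes and the 7 called beta genes. Its call thus rests on WT signals not above background. Pcdhgb1, not called, also entered through the overexpression channel alone, and both genes count in the median of the 17. In limma's test with both channels required above background, 8 of 15 members were called higher and 0 lower. Of all 15422 genes tested in that setting, 3391 were higher and 4807 lower.

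**Figure D1:**
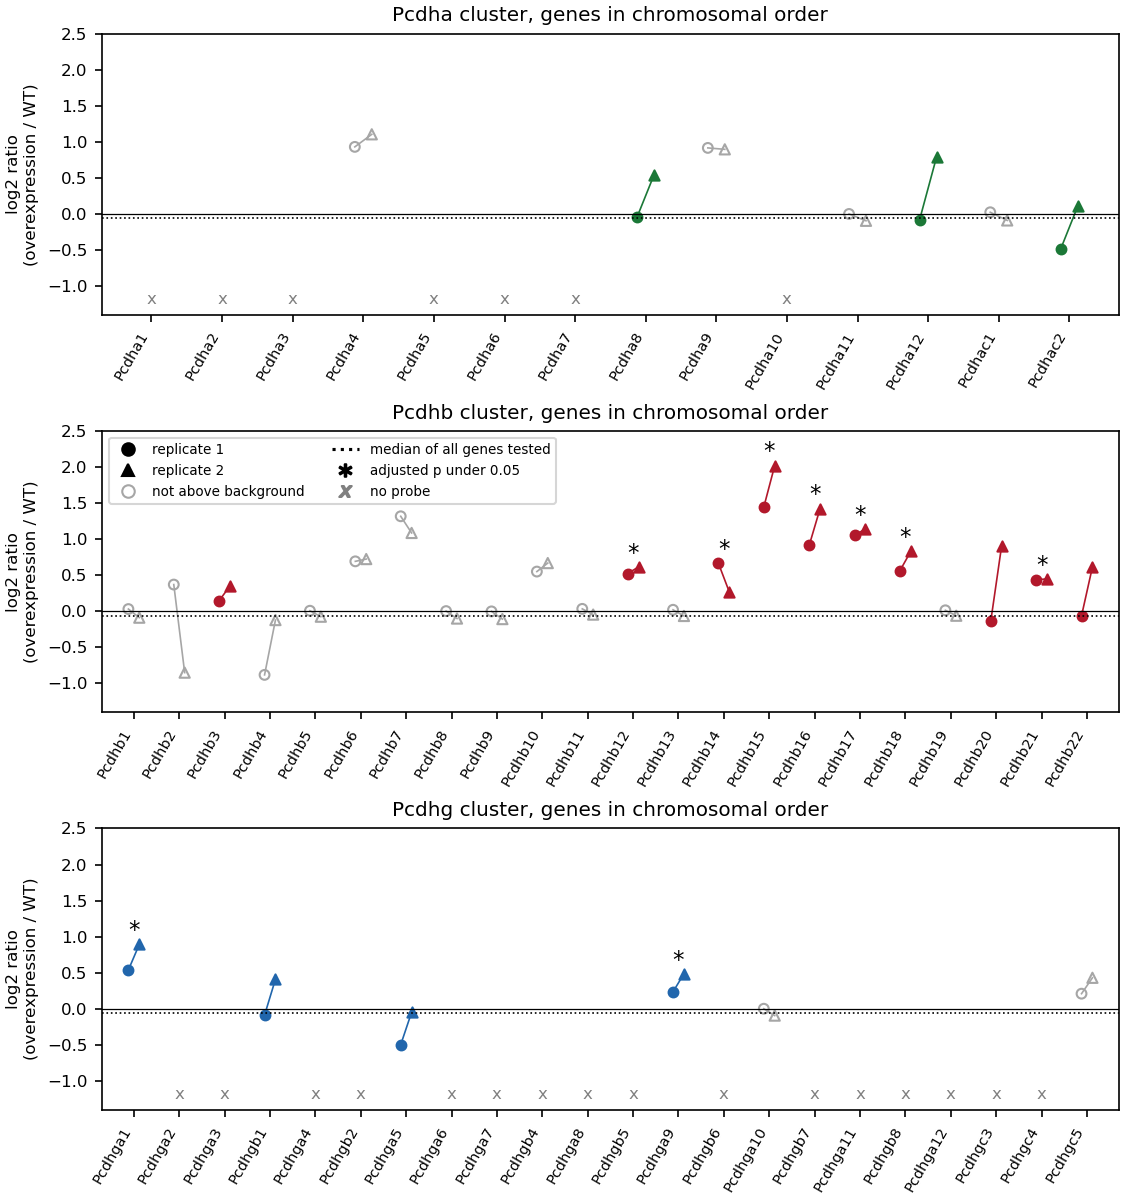
Log2 ratio of overexpression over WT (vertical axis) for each clustered protocadherin in chromosomal order (horizontal axis), by cluster, with replicate 1 as circles and replicate 2 as triangles. Filled symbols mark the 17 genes above background and stars the 9 called ones, 7 of which lie between Pcdhb12 and Pcdhb21. Open symbols mark genes not above background, crosses the 23 genes without a named probe, and the dotted line the median of all genes tested.

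The largest ratio belonged to Pcdhb15, a beta protocadherin in the second part of its cluster. Its processed signals were 73.1 and 143 in the overexpression channel and 26.8 and 35.2 in the WT channel. Both overexpression signals lay above both WT signals, but the WT spots were not well above background on either array. An approximate bound of 2.46-fold higher came from setting the mean of the brighter channel against a floor for the dim channel. The floor was the lowest signal of any probe well above background in that channel. A spot not above background may exceed this floor, so the bound is not a strict minimum, and it is open to dye bias. The measured log2 ratio was 1.73 ± 0.41 (limma adjusted p = 0.000700), and 0.87 with normexp and loess, whose added offset pulls ratios of dim spots towards 0.

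Its downstream neighbours Pcdhb16 and Pcdhb17 followed. Pcdhb16 had signals of 209 and 373 in the overexpression channel and 111 and 139 in the WT channel, a log2 ratio of 1.17 ± 0.36 (adjusted p = 0.00175, limma). Pcdhb17 had 523 and 881 in the overexpression channel and 252 and 399 in WT, with log2 ratios of 1.05 and 1.14 and a mean of 2.14-fold (adjusted p = 0.000623, limma). Neither gene's channels overlapped, and Pcdhb17 was the only member past 2-fold on both arrays with a WT signal above background. Under normexp and loess Pcdhb17 had a log2 ratio of 0.86, and 0 of the 17 members passed 2-fold on both arrays, against 1.79% of all genes higher and 2.83% lower by that rule.

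Smaller rises came from 4 more beta genes. Pcdhb18 had signals of 83.8 and 127 in the overexpression channel and 56.7 and 71.4 in WT (log2 ratio 0.70 ± 0.19, limma adjusted p = 0.00376), and its log2 ratio was 0.33 under normexp and loess (adjusted p = 0.0129). Pcdhb12, among the brightest beta probes, had 662 and 625 in the overexpression channel and 461 and 408 in WT (log2 ratio 0.57 ± 0.066, adjusted p = 0.00459). For both genes the channels did not overlap. Pcdhb14 had 87.3 and 114 against 55.1 and 94.6 in WT (0.47 ± 0.28, adjusted p = 0.0244), and Pcdhb21 had 78.6 and 111 against 58.1 and 81.5 in WT (0.44 ± 0.0089, adjusted p = 0.0100). The channels of Pcdhb14 and Pcdhb21 overlapped across arrays but not within an array, and both calls were lost when the spread was modelled with an intensity trend (adjusted p = 0.0518 and 0.0556).

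The other 3 tested beta genes did not pass. Pcdhb20 had signals of 54.4 and 110 in the overexpression channel and 59.8 and 58.8 in WT, with log2 ratios of -0.14 and 0.91 (limma adjusted p = 0.224). Pcdhb22 had 250 and 467 in the overexpression channel and 261 and 305 in WT, with ratios of -0.063 and 0.61 (limma adjusted p = 0.218). Both changed sign between the arrays. Pcdhb3 had ratios of 0.15 and 0.35, a mean of 0.25 ± 0.14 (limma adjusted p = 0.0830). Its probe was spotted 10 times on each array, which shows how much spots of a dim beta gene scatter. After leaving out the outlier-marked spots, 9 copies on replicate 1 had log2 ratios from -0.40 to 0.33 with an SD of 0.23, and 8 of the 9 were above 0. On replicate 2 the 8 remaining copies ranged from 0.11 to 0.47 with an SD of 0.13. Over all probes with at least 5 copies that were above background in both channels, the SD of copies was 0.076 and 0.070, both smaller than for Pcdhb3. Each other tested member rested on 1 spot per array.

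**Figure D2:**
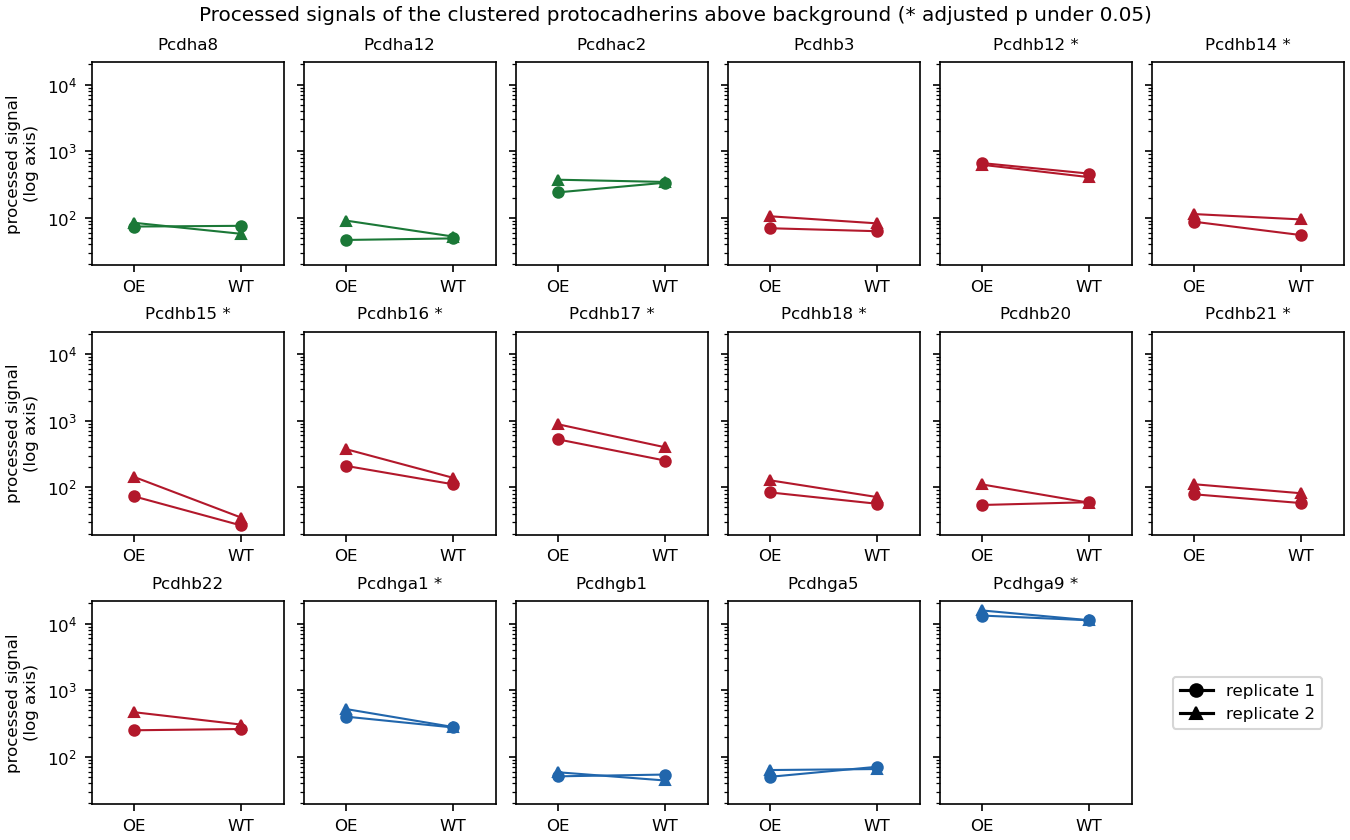
Processed signals (log axis) of the 17 tested clustered protocadherins in the overexpression channel (OE, left) and the WT channel (right), with a line joining the channels of each array (circles replicate 1, triangles replicate 2). Lines slope down from OE to WT on both arrays for the 9 starred genes and for Pcdhb3, and on 1 array at most for the other 7.

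Of the gamma genes, Pcdhga1, which opens the cluster, had signals of 400 and 520 in the overexpression channel and 276 and 280 in WT, a log2 ratio of 0.72 ± 0.25 (limma adjusted p = 0.00481), with no overlap between the channels. Pcdhga9 had 13167 and 15700 against 11185 and 11218 in WT, a log2 ratio of 0.36 ± 0.18 (limma adjusted p = 0.0326). It is the only tested member that is not among the 5357 dimmest of the genes tested. Its other probe had ratios of 0.19 and 0.32 on the arrays, in the same direction. The call of Pcdhga9 was lost with median centring (adjusted p = 0.0506) and without the filter on dim probes (adjusted p = 0.0523). Pcdhgb1 had signals of 51.0 and 58.6 in the overexpression channel and 54.2 and 44.2 in WT, with ratios of -0.089 and 0.41 (limma adjusted p = 0.369). Its WT spot in replicate 2 was not above background, so Pcdhgb1 entered through the overexpression channel alone. Pcdhga5, with ratios of -0.50 and -0.049 (limma adjusted p = 0.130), was the only tested member below 0 on both arrays. Its signals were 50.2 and 63.4 in the overexpression channel and 70.9 and 65.6 in WT.

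No alpha gene passed the test. Pcdhac2, a C-type gene at the end of the alpha cluster, had signals of 241 and 373 in the overexpression channel and 336 and 346 in WT, with log2 ratios of -0.48 in replicate 1 and 0.11 in replicate 2 (mean -0.18 ± 0.42, limma adjusted p = 0.351). Its other probe was not above background. Pcdha8 had signals of 74.0 and 84.2 in the overexpression channel and 75.9 and 57.6 in WT, with ratios of -0.037 and 0.55 (adjusted p = 0.208, limma). Pcdha12 had 46.6 and 90.8 in the overexpression channel and 49.1 and 52.4 in WT, with ratios of -0.077 and 0.79 (adjusted p = 0.192, limma). All 3 genes thus changed sign between the arrays, and the alpha median was -0.077 in replicate 1 and 0.55 in replicate 2.

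The other 18 members with a probe were not well above background in the same channel on both arrays. They had processed signals of 8.22 to 52.3 in the overexpression channel and 8.22 to 44.1 in WT. For 10 of them the scanner software's deposited log ratio was exactly 0 on both arrays. These were Pcdha11, the C-type gene Pcdhac1, Pcdhb1, Pcdhb5, Pcdhb8, Pcdhb9, Pcdhb11, Pcdhb13, Pcdhb19 and Pcdhga10. Of the remaining 8, 6 had a positive ratio on both arrays, 1 (Pcdhb4) a negative ratio on both and 1 (Pcdhb2) ratios of opposite sign. The 6 were Pcdha4, Pcdha9, Pcdhb6, Pcdhb7, Pcdhb10 and the C-type gene Pcdhgc5. Pcdhb6 and Pcdhb7 were well above background in the overexpression channel of replicate 2 alone, at 48.4 and 52.3 against WT signals of 29.3 and 24.6 that were not. Pcdhgc5 had 51.0 and 43.3 in the overexpression channel and 44.1 and 32.1 in WT, above background in replicate 1 alone. No fold is given for these genes. The signs of other genes that failed the filter were not counted, so the counts of signs here have no background share beside them. Detection was lower than elsewhere on the array, with 48.6% of the clustered protocadherins with a probe past the filter, against 79.3% of all named genes.

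Within the beta cluster the tested genes were not spread evenly. Only 1 of the 11 genes from Pcdhb1 to Pcdhb11 passed the filter on dim probes, against 9 of the 11 from Pcdhb12 to Pcdhb22, and probe brightness as well as RNA level can set whether a gene passes. All 7 called beta genes lay in that second stretch, where the untested genes were Pcdhb13 and Pcdhb19. Among the 10 tested genes the ratio showed no steady course along the cluster, with Spearman's rho between ratio and position of -0.15 (-0.35 in replicate 1 and 0.13 in replicate 2). The highest ratios, of Pcdhb15, Pcdhb16 and Pcdhb17, were side by side, and the adjacent Pcdhb14 and Pcdhb18 were called as well. These values share arrays and possibly probe targets and are a description. Between the beta and gamma clusters lie Taf7, a subunit gene of the basal transcription factor TFIID, and Slc25a2, a mitochondrial ornithine carrier gene, both singled out after their values were seen. Their log2 ratios were 0.11 ± 0.13 and -0.082 ± 0.035, and neither passed (limma adjusted p = 0.386 and 0.479).

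Ratios of these genes differed between the arrays. The ratio was larger in replicate 2 than in replicate 1 for 16 of the 17 tested members, against 49.6% of all genes and 55.2% of the 5357 dimmest, to which 16 of the 17 members belong. The exception was Pcdhb14. In replicate 1, 10 of the 17 members had a positive ratio, against 43.4% of all genes, and in replicate 2, 16 of 17 against 45.1%. The beta median was 0.54 in replicate 1 and 0.72 in replicate 2, and the gamma median 0.073 and 0.45. These counts and medians include Pcdhb15 and Pcdhgb1, which entered through the overexpression channel alone.

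Markers of the feeder fibroblasts also had larger ratios in replicate 2. Of 16 such markers 15 were higher and 0 lower, where 21.2% of all genes were higher and 29.9% lower. The ratio was larger in replicate 2 for 16 of 16, with medians of 0.92 in replicate 1 and 1.49 in replicate 2. Their summed processed signal was 196681 and 263831 in the overexpression channel, against 96842 and 88971 in WT, and 0 of the 16 were at background in WT on both arrays. The part of fibroblast RNA in the rise of the protocadherins was not tested, and in these bulk samples fewer cells of a type and less RNA per cell cannot be told apart. Primitive endoderm markers were higher in 16 of 16, with medians of 3.20 in both replicates, and 1 of them, Ttr, was not above background in WT. Their summed signal was 216463 and 225765 in the overexpression channel and 39523 and 45497 in WT, and their part was not tested either. Neuronal markers had 0 of 13 higher and 5 lower (median -0.28), or 38.5% lower against 29.9% of all genes. Their summed signals were 66335 and 70726 in the overexpression channel and 73531 and 83349 in WT. The uncalled Snap25 gave 29995 and 33012 of the overexpression sums and 25808 and 31795 of the WT sums. Of 9 tested neural progenitor markers 0 were higher and 7, or 77.8%, lower (median -0.77), with sums of 12057 and 13178 against 20123 and 21103 in WT. The ratio was larger in replicate 2 for 5 of 16 primitive endoderm, 3 of 10 ESC, 4 of 13 neuronal and 3 of 9 neural progenitor markers. The same held for 13 of 16 tested non-clustered protocadherins and Fat or Dchs cadherins and for 7 of 10 classical cadherins.

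**Figure D3:**
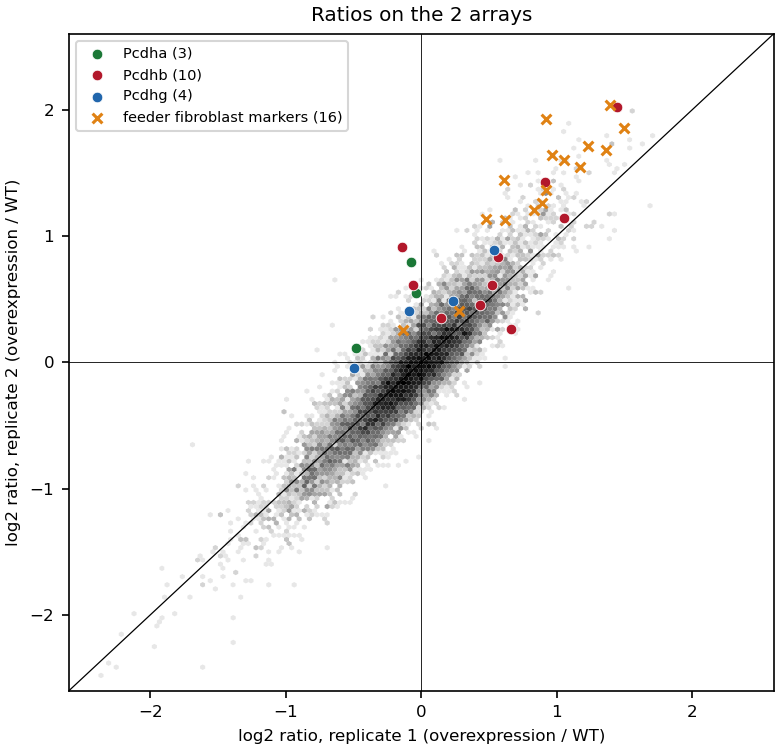
Log2 ratio of overexpression over WT in replicate 2 (vertical) against replicate 1 (horizontal) for all genes tested (grey density, darker for more genes), with the 17 clustered protocadherins as coloured points and 16 feeder fibroblast markers as crosses. Genes beyond the axes are not drawn. All protocadherins but Pcdhb14 lie above the diagonal of equal ratios, as do all the fibroblast markers.

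Regulators of the clusters were mostly not called. Of 22 genes for CTCF, cohesin and its loaders and release factors, DNA methyltransferases and silencing factors, 1 was higher and 5 lower, with a median of -0.12. The de novo DNA methyltransferase genes Dnmt3a and Dnmt3b fell, with log2 ratios of -0.67 ± 0.36 and -0.53 ± 0.027 (limma adjusted p = 0.0111 and 0.00544). Dnmt3b had signals of 18126 and 19183 in the overexpression channel and 25850 and 28105 in WT. Stag2, which encodes a cohesin subunit, fell by 0.62 (log2), and Wapl, which encodes the cohesin release factor, fell by 0.40 (adjusted p = 0.00384 and 0.0144, limma). The ratio of Ctcf itself, singled out after its value was seen, was -0.11 ± 0.040 (limma adjusted p = 0.348). Both counts are no larger a share of the list than the background shares given above.

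Downstream partners of the cytoplasmic domains were mostly not called. Of 19 tested genes of this list, 2 were higher and 4 lower (median -0.086), or 10.5% and 21.1%, both below the shares over all genes. The kinase gene Ptk2b, which encodes PYK2, a kinase that binds these domains, rose by 0.62 ± 0.18 on the log2 scale (adjusted p = 0.00532), as did the sheddase gene Adam10, at 0.52 ± 0.088 (adjusted p = 0.00664). Of the genes of the WAVE actin-regulatory complex, the lowest were Cyfip2 at -1.22 ± 0.21 (adjusted p = 0.000788) and Wasf3 at -0.54 ± 0.14 (adjusted p = 0.00700).

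Cadherins outside the clusters moved both ways. Of 16 tested non-clustered protocadherins and Fat or Dchs cadherins, 6 were higher and 6 lower (median 0.15). That was 37.5% each way, against 21.2% higher and 29.9% lower over all genes. Pcdh19 had signals of 2903 and 5214 in the overexpression channel and 1216 and 1842 in WT, a log2 ratio of 1.38 ± 0.17 (limma adjusted p = 0.000484). Pcdh10 had 1.34 ± 0.41 and Pcdh7 1.21 ± 0.46 (adjusted p = 0.00146 and 0.00255, limma). Pcdh20 was not above background in WT, and the same approximate bound, not a strict minimum, was 1.26-fold higher. Of 10 classical cadherins 5 were higher and 2 lower (median 0.63), or 50% and 20%. The highest were Cdh6 at 1.37 ± 0.046, Cdh13 at 1.20 ± 0.31, Cdh5 at 1.06 ± 0.045 and Cdh11 at 1.03 ± 0.34 (limma adjusted p = 0.000342 to 0.00226). With the mean over probes Cdh11 had a ratio of 0.41, and with normexp and loess Cdh5 had 0.67. The lowest of each list, named after their values were seen, were Pcdh17 at -1.16 ± 0.047 and Cdh10 at -0.92 ± 0.26 (limma adjusted p = 0.000533 and 0.00226). The part of fibroblast RNA in the ratios of these cadherins was not tested.

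Genes that flank the clusters or lie between them were mostly not called. Of 19 such genes 1 was higher and 6 lower, with a median of -0.11, and 3 were lower with median centring. The 31.6% of them that were lower is close to the 29.9% over all genes. The higher gene was Cd14, an innate immune co-receptor gene before the alpha cluster, at 0.42 ± 0.24 (limma adjusted p = 0.0266). The log2 ratio was -1.03 for Arap3, a GTPase-activating protein gene, -0.86 for the spliceosome gene Ik and -0.40 for Fchsd1 (adjusted p = 0.00126, 0.00169 and 0.0138, limma).

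**Figure D4:**
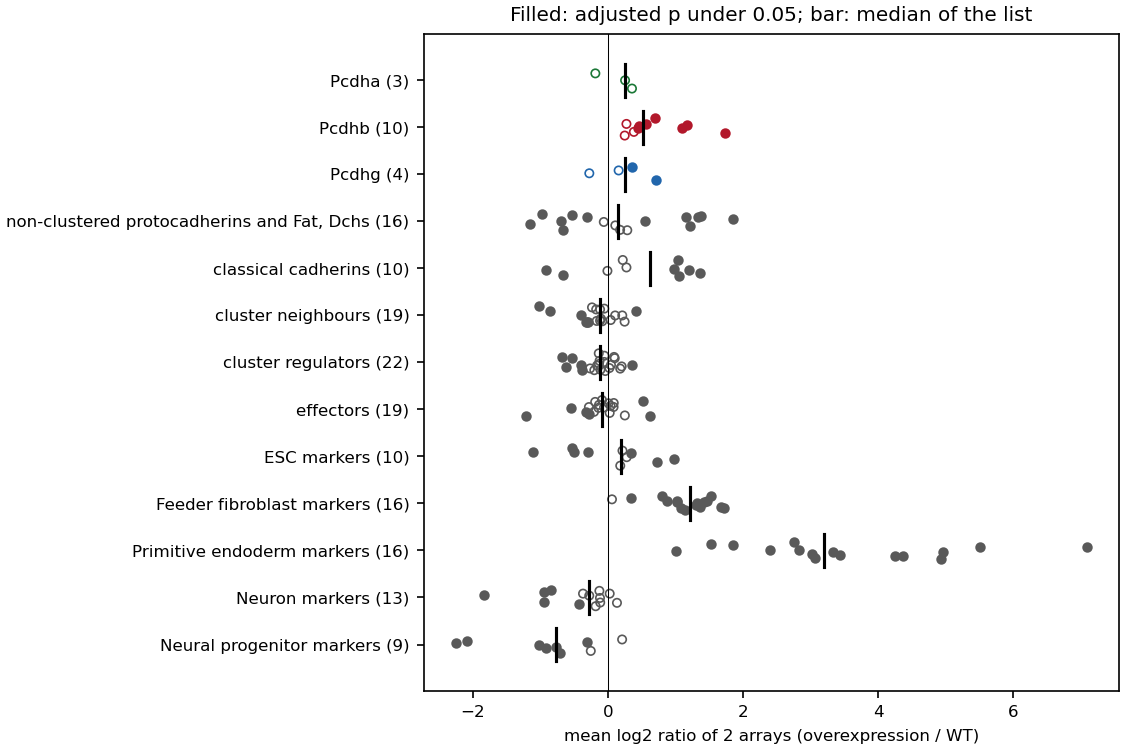
Mean log2 ratio over the 2 arrays (horizontal) of each tested gene, by cluster and by list (vertical, number of tested genes in brackets), filled where the adjusted p was under 0.05, with a bar at the list's median. The beta cluster has its median at 0.52, the cluster neighbours at -0.11 and the fibroblast markers at 1.22. The rightmost point, Ttr, and Pcdh20 and Pcdhb15 have WT signals not above background, so their points rest on an uncertain WT level.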

How the data were processed

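Agilent two-colour arrays were scanned and read with Feature Extraction 11.5.1.1, per the file headers. The deposited intensity values used here are the processed signals, background-subtracted and dye-normalized by the authors' software, and the raw median signals, which are not normalized. The deposited log10 ratio served to find spots set to 0. The authors' deposited series table holds log2 values that matched the processed ratios with r = -1.000 on both arrays, so its direction is WT over overexpression, with medians of -0.0073 and 0.062. Over the 16069 genes tested, its median with the sign turned was -0.0614, the same as for the processed ratios. The series values were thus not centred further.

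Control spots were dropped, as were 269 and 313 spots the scanner software marked as outliers. Saturation affected 0 spots. Copies of a probe were averaged. From 55681 probes, 26762 matched 1 gene through an accession, 0 several and 28919 none. A gene took its brightest probe, and entered the test if 1 same channel of that probe exceeded background (the scanner software's flag) on both arrays. Log2 ratios were tested against 0 with limma 3.58.1 in R 4.3.3 (intercept only, eBayes, two-sided, Benjamini-Hochberg over 16069 genes). The 1 residual degree of freedom stood beside 4.60 prior ones, the typical SE was 0.094, and the number of arrays limits the precision.

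The members and lists were chosen with earlier results of these data known. Named with values are the 4 highest and 4 lowest members of each cluster, C-type members, members with a bound, and up to 4 called genes per list with the largest absolute ratio. Sequences were not used here. Dchs2, Pcdh11x and Neurog2 have no tested probe.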

Additional observations from a re-analysis of the deposited data

How the results depend on the processing

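Under 8 alternative settings that allow a test, 7 to 13 clustered protocadherins were called higher and 0 lower. The 13 were of 35 members, all those with a probe, without the filter on dim probes. There 17.0% of all genes were higher and 22.5% lower, and most of the added members were not above background. The 7, of 17, came with an intensity trend, where 23.5% of all genes were higher. The number at least 2-fold higher on both arrays was 0 with normexp and loess and 1 when both channels had to be above background, which leaves out Pcdhb15. The beta median was 0.37 with normexp and loess and 0.33 without the filter on dim probes, where all 22 genes enter. Leaving out an array gave beta medians of 0.54 to 0.72, alpha medians of -0.077 to 0.55 and gamma medians of 0.073 to 0.45, with Spearman coefficients along the beta cluster of -0.35 to 0.13. These single-array values have no test, and without replicate 2 the alpha median lies below 0. Without the filter on dim probes that coefficient was 0.43, again over 22 genes. Of the 12 beta genes so added, 7 had a deposited log ratio of 0 on both arrays. Only 1 of the 11 genes from Pcdhb1 to Pcdhb11 had passed the filter, so that value mixes detected and undetected genes unevenly along the cluster. The cause of these shifts was not tested. Of 134 tested comparisons of a member's ratio with an alternative, 129 kept the direction and the side of the threshold, and 4, of Pcdhga9, Pcdhb14 and Pcdhb21, are given above. The remaining one, Pcdhgb1, was -0.024 with normexp and loess, called in neither setting. On a single array, 6 uncalled members had the opposite sign to their mean. With median centring, and without the filter, 3 cluster neighbours, 2 effectors and 5 regulators were lower. The series table, being the same ratios, changed no call. The log2 ratio within each array already pairs the channels, which leaves no further block to fit. Dim signals limit the precision, since 16 of the 17 tested members are among the 5357 dimmest genes.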
